A study of Saccharomyces cerevisiae with 4 samples.

Results

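The 10 genes described here encode the enzymes that build and break down glycogen in budding yeast, and the subunits that bring a protein phosphatase to glycogen. They were chosen by name: the synthases GSY1 and GSY2, the initiators GLG1 and GLG2, the branching enzyme GLC3, the breakdown enzymes GPH1 and GDB1, and the targeting subunits GAC1, PIG1 and PIG2. Each had 1 probe set, none with the suffix that marks shared sequence, so they made up 10 of the 10928 probe sets in the table. All 10 passed the filter on dim signals and stood among the 5470 probe sets tested, of 5498 that name 1 S. cerevisiae gene.

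Total RNA of 4 cultures was measured on Affymetrix Yeast Genome arrays. Per the labels, 2 biological replicates of strain BY4741 carried the RNase H1 overexpression plasmid p425-GPD-RNase H1, and 2 carried p425-GPD, the same plasmid without the insert. All 4 cultures were of mating type MATa with the alleles his3∆1, leu2∆0, met15∆0 and ura3∆0, and shared the LEU2 marker of the plasmid, growth at 30°C in synthetic medium that lacked leucine, and harvest in mid-log phase. RNase H1 removes the RNA strand of RNA-DNA hybrids, the GPD promoter is a strong constitutive one, and the comparison asks which transcripts differ when the plasmid carries the gene. The species of the insert and the amount of enzyme made are not stated in the labels.

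Glycogen is a branched polymer of glucose that yeast lays down when nutrients run short and burns when growth resumes. The glycogenins Glg1 and Glg2 start a chain on themselves, the synthases Gsy1 and Gsy2 lengthen it from UDP-glucose, and Glc3 adds the branches. The phosphorylase Gph1 takes glucose off the chain ends and the debranching enzyme Gdb1 removes what remains at a branch. Phosphorylation by several kinases inhibits the synthases, and the phosphatase Glc7, held at glycogen by Gac1 and related subunits such as Pig1 and Pig2, reverses it. Many of these genes are known to be transcribed more strongly under stress and as glucose runs low, and less strongly when cyclic AMP-dependent kinase is active.

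Signal sums per array lay between 6889764 and 7097920. The median signal of probe sets for S. pombe, a yeast that shares the array and was not hybridised here, lay between 1.05 and 1.82, and their 95th percentile between 5.35 and 6.84. Actin probe sets at the 3' and 5' ends, whose ratio tracks RNA integrity, gave 3'/5' ratios of 1.68 and 1.48 in RNase H arrays 1 and 2, against 1.34 in both empty vector arrays. The signals of RNH1, which encodes the yeast's own RNase H1, were 303 and 307 in the RNase H arrays and 320 and 292 in the empty vector arrays, and so did not separate the groups. Its probe set is a check of the labels for a yeast insert alone. The 6 a-specific genes checked, which mark the labelled mating type, were detected on all arrays. All 6, however, lay lower in both RNase H arrays than in both empty vector arrays, as did 30.8% of all tested probe sets. Of the 6 genes, 2 passed the limma test described below, which called 1.48% of all tested probe sets. STE2 had 3903 and 3853 in the RNase H arrays and 7352 and 7527 in the empty vector arrays (adjusted p = 0.0161). BAR1 had 556 and 425 in the RNase H arrays and 2730 and 2909 in the empty vector arrays (adjusted p = 0.0188). Of the alpha-specific genes, MF(ALPHA)1 lay between 8.39 and 20.3 on the 4 arrays. STE3 was above both controls in both RNase H arrays, with 138 and 75.6 in the RNase H arrays and 33.6 and 41.5 in the empty vector arrays, and did not pass (adjusted p = 0.133). The 2 RNase H arrays stood apart from each other: their log2 signals had a median SD of 0.236 per probe set, against 0.0756 in the empty vector pair. Of all tested probe sets, RNase H array 2 was over 2-fold below array 1 for 7.28% and over 2-fold above it for 3.35%, while 1.24% of the probe sets were over 2-fold apart between the empty vector arrays. Each result below is therefore given for the RNase H arrays together and apart. Here and below, bulk RNA cannot tell fewer cells with a transcript from less of it in each cell.

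None of the 10 glycogen genes passed the test between the RNase H and the empty vector cultures, in a comparison that called 1.48% of all tested probe sets (81 of 5470). The test was limma's moderated test with Benjamini-Hochberg adjustment over all 5470 probe sets at a threshold of 0.05, and the 10 adjusted p-values lay between 0.135 and 0.783. With p under 0.05 before adjustment, 0 of the 10 were higher and 2, GLG2 and PIG1, were lower, where 11% of all tested probe sets were higher and 12.7% lower. The fitted log2 fold changes were below 0 for 7 genes and above 0 for 3, with a median of −0.996, beside −0.02 over all tested probe sets. In RNase H array 2 all 10 genes lay below the empty vector mean, as did 56.2% of all tested probe sets, with a median log2 difference of −1.83. It was over 2-fold below that mean for 7 of them, where 6.54% of all tested probe sets were, and it was the lowest of the 4 arrays for 9, as for 41.2% of all. In array 1, 5 lay below the empty vector mean, as did 45.5% of all tested probe sets, and 5 above it, with a median of −0.15.

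**Figure D1:**
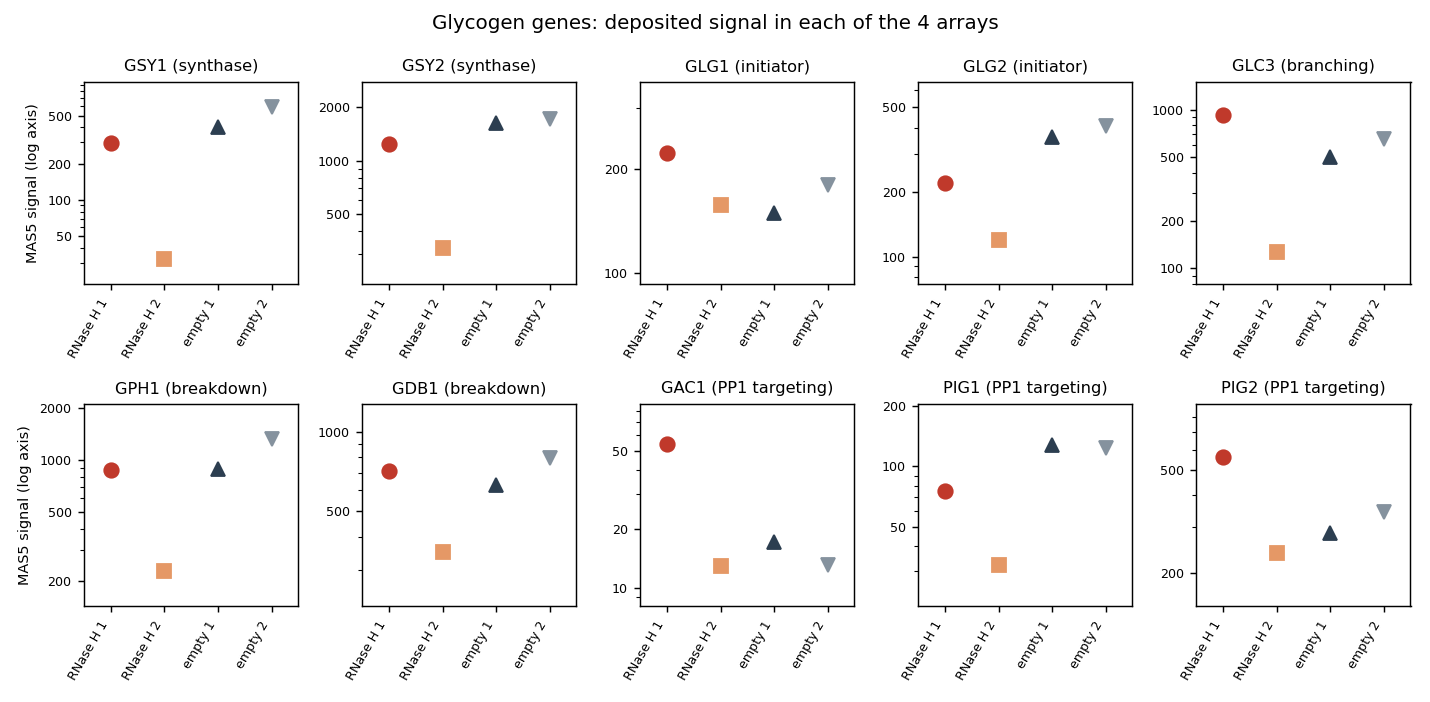
MAS5 signal of the 10 glycogen genes (1 panel each, logarithmic vertical axis, ranges differ between panels) in RNase H arrays 1 and 2 and empty vector arrays 1 and 2; each point is 1 array. RNase H array 2 lies below RNase H array 1 in all 10 panels and is the lowest of the 4 arrays in 9, the exception being GLG1.

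GSY1 (YFR015C) and GSY2 (YLR258W) encode the 2 glycogen synthase isoforms, of which Gsy2 is known as the main one in cells nearing stationary phase. GSY1 had signals of 295 and 32.1 in RNase H arrays 1 and 2, against 399 and 589 in the empty vector arrays. GSY2 had 1235 and 324 in the RNase H arrays, against 1638 and 1721 in the empty vector arrays. For both synthases each RNase H array lay below each empty vector array, array 1 by a modest margin and array 2 far below. RNase H array 2 was 15.1-fold below the empty vector mean for GSY1, the second-lowest such difference among the 5470 tested probe sets, and 5.18-fold below it for GSY2, which ranked 29 from the bottom. In array 1 the same differences were 1.64-fold and 1.36-fold. The fitted log2 fold change was −2.32 ± 1.07 (SE, n = 2 against 2) for GSY1 and −1.41 ± 0.64 for GSY2. Neither passed the limma test, with adjusted p-values of 0.265 and 0.260. The SD of the log2 signal was 2.26 between the RNase H arrays and 0.40 between the empty vector arrays for GSY1, and 1.36 and 0.05 for GSY2.

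GLG1 (YKR058W) and GLG2 (YJL137C) encode the 2 glycogenins, self-glucosylating proteins on which each new glycogen molecule begins. GLG2 had signals of 220 and 119 in the RNase H arrays, against 362 and 407 in the empty vector arrays, with no overlap. GLG1 had 222 and 158 in the RNase H arrays, against 149 and 179 in the empty vector arrays, so array 1 was the highest of the 4 and array 2 lay between the controls. GLG2 thus stood lower in both RNase H arrays, by 1.75-fold in array 1 and 3.23-fold in array 2 relative to the empty vector mean, while GLG1 was 1.36-fold higher in array 1 and 1.04-fold lower in array 2. GLG2 had the smallest adjusted p of the 10 genes (log2 −1.25 ± 0.34, adjusted p = 0.135), and GLG1 was at 0.19 ± 0.27 (adjusted p = 0.688). Whether the paralogs differ in their response was not tested. GLG1 was also the gene with the smallest gap between the RNase H arrays, 1.41-fold, against 1.85-fold for GLG2.

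GLC3 (YEL011W) encodes the branching enzyme, without which yeast makes little glycogen. Its signals were 930 and 127 in RNase H arrays 1 and 2, against 506 and 657 in the empty vector arrays. The empty vector arrays lay between the RNase H arrays, with array 1 above both and array 2 below both. Relative to the empty vector mean GLC3 was 1.61-fold higher in array 1 and 4.53-fold lower in array 2. The 7.31-fold gap between the RNase H arrays was the second largest of the 10 genes, after the 9.19-fold gap of GSY1, and among all tested probe sets these gaps ranked 17 and 14 from the most negative. The fitted log2 fold change of GLC3, −0.75 ± 0.95 (adjusted p = 0.661), averages these opposite differences.

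GPH1 (YPR160W), the glycogen phosphorylase gene, had signals of 876 and 229 in the RNase H arrays, against 888 and 1325 in the empty vector arrays. GDB1 (YPR184W), the debranching enzyme gene, had 712 and 351 in the RNase H arrays, against 629 and 794 in the empty vector arrays. For both breakdown genes, array 1 stood within or just below the range of the controls and array 2 was the lowest of the 4 arrays. RNase H array 2 was 4.74-fold below the empty vector mean for GPH1 and 2.01-fold for GDB1, so the breakdown genes were low in the same array as the synthases and the branching enzyme. Fitted over both arrays, the log2 fold change was −1.28 ± 0.67 for GPH1 (adjusted p = 0.310) and −0.50 ± 0.38 for GDB1 (adjusted p = 0.464). Between the empty vector arrays, array 2 was above array 1 for 8 of the 10 glycogen genes, as for 57.4% of all tested probe sets, by up to 1.49-fold for GPH1 and 1.48-fold for GSY1.

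The 3 genes of phosphatase-targeting subunits did not share 1 pattern. PIG1 (YLR273C), whose product binds Gsy2, had signals of 75.4 and 32.2 in the RNase H arrays, against 128 and 124 in the empty vector arrays. GAC1 (YOR178C), the best known of these subunits, had 54.1 and 12.9 in the RNase H arrays, against 17.02 and 13.1 in the empty vector arrays. PIG2 (YIL045W), a related subunit, had 562 and 238 in the RNase H arrays, against 284 and 344 in the empty vector arrays. PIG1 was thus below both controls in both RNase H arrays, and PIG2 was above both in array 1 and below both in array 2. GAC1 was 3.62-fold above the empty vector mean in array 1. It was the only 1 of the 10 over 2-fold above that mean there, a count near the 6.03% of all tested probe sets. In array 2 GAC1 lay just under the lower control, and its signals there and in the controls were dim, not far above the 95th percentile of the S. pombe probe sets. The fitted log2 fold changes were −1.36 ± 0.47 for PIG1 (adjusted p = 0.186), 0.82 ± 0.78 for GAC1 (adjusted p = 0.547) and 0.23 ± 0.45 for PIG2 (adjusted p = 0.783).

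**Figure D2:**
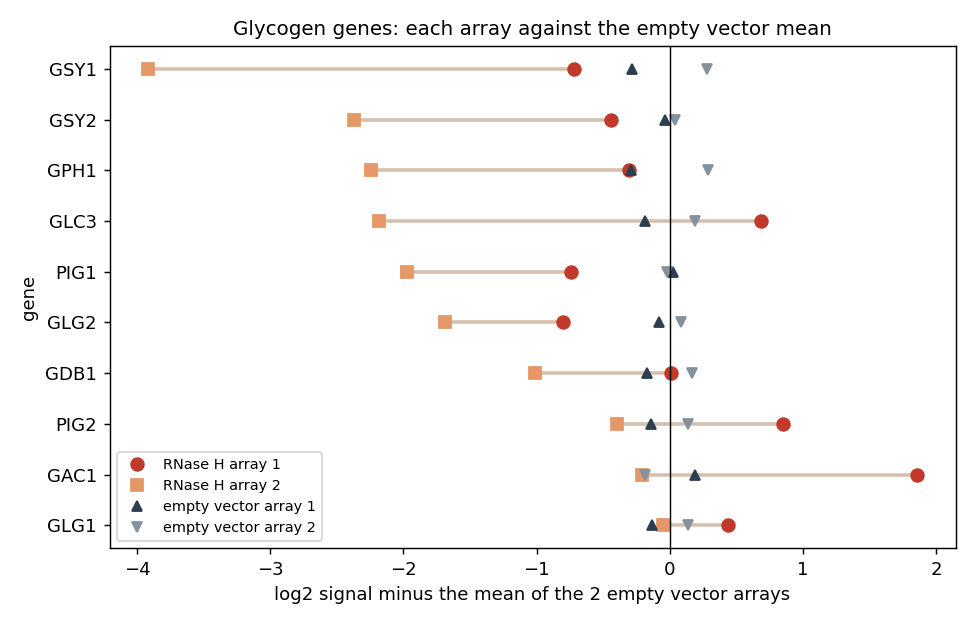
Log2 signal of each array minus the mean of the 2 empty vector arrays (horizontal axis) for the 10 glycogen genes, ordered by RNase H array 2; the bar joins the 2 RNase H arrays. Array 2 lies over 2-fold (1 on this scale) below the empty vector mean for 7 genes, and array 1 lies on both sides of it.

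By how the 4 arrays fell, the 10 genes formed 3 sets. In the first, GSY1, GSY2, GLG2, GPH1 and PIG1, both RNase H arrays lay below both empty vector arrays, as they did for 30.8% of all tested probe sets. In the second, GLC3, PIG2 and GAC1, array 1 lay above both controls and array 2 below both; for 21.2% of all tested probe sets the 2 RNase H arrays lay on opposite sides of the controls. GLG1 and GDB1 had 1 RNase H array within the range of the controls. No gene had both RNase H arrays above both controls, where 28% of all tested probe sets did. Within the first set GPH1 was there by a narrow margin, 876 in array 1 against 888 in the lower control. Within the second, GAC1 was there by a narrower margin, 12.9 in array 2 against 13.1 in the lower control, both dim.

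The 2 RNase H arrays differed from each other in 1 direction for these genes. Array 2 was below array 1 for all 10, as for 59.9% of all tested probe sets, by between 1.41-fold for GLG1 and 9.19-fold for GSY1. It was over 2-fold below for 8 of the 10, all but GLG1 and GLG2, against the 7.28% of all tested probe sets given above, and no gene was over 2-fold above. Over 1.5-fold below were 9 of the 10, all but GLG1, and 19% of all tested probe sets. The median log2 gap of the 10 was −1.59, beside −0.11 over all tested probe sets. In the empty vector pair the largest gap of the 10 was 1.49-fold, and for each of the 10 the RNase H gap was the larger, as for 80.4% of all tested probe sets. With 1 array on each side, this gap has no replicate check and no p-value. A count of 10 genes that lie on 1 side does not stand for 10 independent observations, because they come from the same 2 RNA samples.

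**Figure D3:**
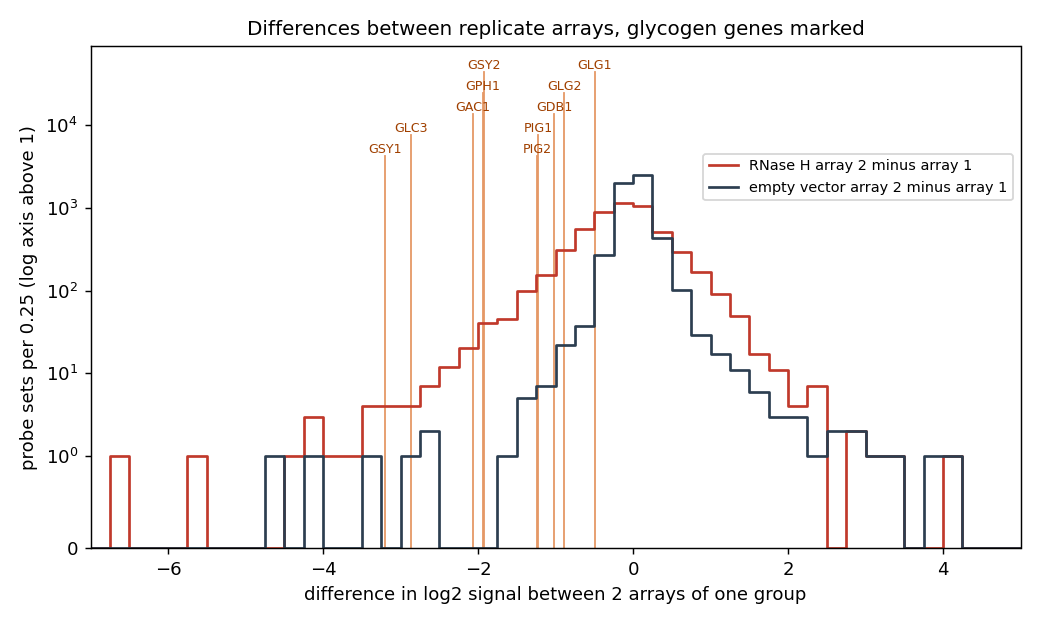
Number of tested probe sets (vertical axis, logarithmic above 1) by the difference in log2 signal between array 2 and array 1 (horizontal axis, bins of 0.25), for the RNase H pair and the empty vector pair; vertical lines mark the RNase H difference of the 10 glycogen genes. All 10 lines lie left of 0, from −3.20 for GSY1 to −0.49 for GLG1, and the RNase H pair is spread more widely than the empty vector pair.

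Leaving out 1 RNase H array moved the count of called genes, and the direction with it. Without array 1, 7 of the 10 passed as lower and 0 as higher, where 29.3% of all tested probe sets passed as lower and 21.6% as higher. Without array 2, GSY2, GLG2 and PIG1 passed as lower and GLC3, GAC1 and PIG2 as higher, where 15.2% of all tested probe sets passed as lower and 17% as higher. These fits take their spread from the empty vector pair alone and assume that the lone RNase H array varies as little, which the pair of RNase H arrays did not. GSY2, GLG2 and PIG1 were lower in both fits. GLC3 was higher in the fit without array 2 (log2 0.69) and lower in the fit without array 1 (log2 −2.18). For GSY1 the log2 fold change was −0.72 without array 2 and did not pass (adjusted p = 0.0570), and −3.92 without array 1. Leaving out either empty vector array left 0 of the 10 called.

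**Figure D4:**
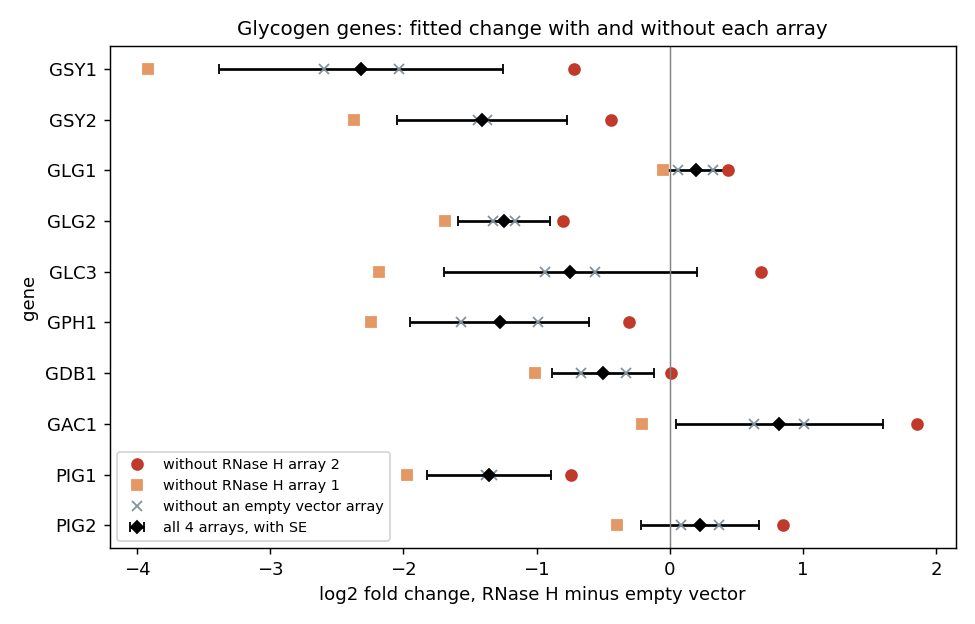
Fitted log2 fold change, RNase H minus empty vector (horizontal axis), of the 10 glycogen genes from all 4 arrays (diamonds, bars are 1 SE), and after leaving out RNase H array 2, RNase H array 1 or either empty vector array. For GLG1, GLC3, GDB1, GAC1 and PIG2 the values without array 1 and without array 2 lie on opposite sides of 0.

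The genes that supply the pathway with UDP-glucose came next. Of 6 genes for hexokinases, phosphoglucomutases and UDP-glucose pyrophosphorylase, 0 passed the limma test, which called 1.48% of all tested probe sets. With p under 0.05 before adjustment 0 were higher and 3 lower, where 11% of all tested probe sets were higher and 12.7% lower. All 6 log2 fold changes were below 0, as were 2810 of all 5470. Their median was −0.95, beside −0.02 over all tested probe sets. UGP1, which makes UDP-glucose, had signals of 3220 and 1185 in the RNase H arrays, against 4838 and 5395 in the empty vector arrays. PGM2, the main phosphoglucomutase gene, had 1084 and 321 in the RNase H arrays, against 972 and 1230 in the empty vector arrays. UGP1 was thus below both controls in both RNase H arrays, and PGM2 in array 2 alone. PGM1, the minor phosphoglucomutase gene, showed no such gap, with 602 and 590 in the RNase H arrays against 1042 and 1106 in the empty vector arrays (log2 −0.85 ± 0.15, adjusted p = 0.0774). The glucokinase gene GLK1 had 4045 and 1105 in the RNase H arrays against 3822 and 4777 in the empty vector arrays, so that array 2 alone lay outside the range of the controls. HXK1, a hexokinase gene that is induced when glucose is scarce, had 2094 and 829 in the RNase H arrays against 2978 and 3914 in the empty vector arrays. HXK2, the hexokinase gene of growth on glucose, stayed between 5371 and 6667 in all 4 arrays. For these 6 genes the median log2 difference from the empty vector mean was −0.45 in array 1 and −1.86 in array 2.

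Apart from the targeting subunits above, the lists of genes that set the activity of glycogen synthase differed less between the RNase H arrays than the glycogen genes. Of 8 genes for the phosphatase Glc7 and its regulators, 0 passed. With p under 0.05 before adjustment, 1 was higher and 2 lower, beside shares of 11% and 12.7% over all tested probe sets. Between the RNase H arrays 0 of the 8 were over 2-fold apart. Of all tested probe sets, RNase H array 2 was over 2-fold below array 1 for 7.28% and over 2-fold above it for 3.35%. GLC7 had signals of 2540 and 3103 in the RNase H arrays, against 3318 and 2728 in the empty vector arrays, which overlap. REG2, a Glc7 subunit related to Reg1, had 97.5 and 105 in the RNase H arrays against 35.0 and 56.6 in the empty vector arrays (log2 1.19 ± 0.34, adjusted p = 0.150). Of 13 genes for kinases and cyclins that act on the synthase, 0 passed. Before adjustment 1 was higher and 3 lower at p under 0.05, beside the same shares of 11% and 12.7%. Again 0 were over 2-fold apart. RNase H array 2 was still below array 1 for 12 of the 13, as for 59.9% of all tested probe sets. PHO85, a cyclin-dependent kinase that phosphorylates Gsy2, had 930 and 532 in the RNase H arrays against 943 and 959 in the empty vector arrays. Its cyclins for that task, PCL8 and PCL10, had log2 fold changes of 0.03 ± 0.21 and 0.21 ± 0.22, with overlapping arrays. SNF1, the kinase needed for glycogen storage when glucose is low, had 939 and 701 in the RNase H arrays against 862 and 926 in the empty vector arrays. PSK2, a PAS kinase that phosphorylates Ugp1, was at 0.61 ± 0.17 (adjusted p = 0.135), and SNF4, the activating subunit of Snf1, at −0.52 ± 0.14 (adjusted p = 0.128).

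Of 17 tested genes for the cyclic AMP pathway and stress activators, 0 passed. With p under 0.05 before adjustment 0 were higher and 1 was lower, where 11% of all tested probe sets were higher and 12.7% lower. Of the 17 genes, RNase H array 2 was over 2-fold below array 1 for 2 and over 2-fold above it for 2, beside 7.28% and 3.35% of all tested probe sets. RAS1, a GTPase that stimulates adenylate cyclase, had signals of 364 and 1187 in RNase H arrays 1 and 2, against 594 and 569 in the empty vector arrays. PDE2, the high-affinity cyclic AMP phosphodiesterase gene, had 689 and 1791 in the RNase H arrays against 674 and 729 in the empty vector arrays. Both were thus highest in RNase H array 2, which was the lowest of the 4 arrays for 9 of the 10 glycogen genes. Any link of RAS1 and PDE2 to the glycogen values was not tested. PDE1, the low-affinity phosphodiesterase gene, had 1562 and 571 in the RNase H arrays against 1154 and 1018 in the empty vector arrays, with array 1 highest and array 2 lowest. YAK1, a kinase that antagonises growth, had the same order, with 1363 and 616 in the RNase H arrays against 885 and 1049 in the empty vector arrays. The stress activator genes MSN2 and MSN4 had log2 fold changes of −0.17 ± 0.21 and −0.29 ± 0.22, neither past the threshold (adjusted p = 0.645 and 0.470).

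Of 5 other genes linked to glycogen turnover, among them autophagy genes, 4 were above the empty vector mean in array 1 and 1 in array 2. Of all 5470 tested probe sets, 2980 were above it in array 1 and 2397 in array 2. IGD1, an inhibitor of the debranching enzyme, had signals of 404 and 91.9 in the RNase H arrays, against 176 and 209 in the empty vector arrays. SGA1, a glucoamylase that degrades glycogen during sporulation, had 92.8 and 49.4 in the RNase H arrays, against 28.8 and 33.1 in the empty vector arrays (log2 1.13 ± 0.42, adjusted p = 0.200). It was the only 1 of the 5 genes above both controls in both RNase H arrays, where 28% of all tested probe sets were. IGD1 had array 1 above both controls and array 2 below both, as GLC3 did. None of the 5 passed in limma. With p under 0.05 before adjustment 1 was higher and 0 lower, where 11% of all tested probe sets were higher and 12.7% lower. RNase H array 2 was below array 1 in all 5, as for 59.9% of all tested probe sets.

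Stress genes differed between the same arrays. The list held 20 genes chosen as stress reporters, whose promoters were not examined here. Array 2 was below array 1 for all 20 and over 2-fold below for 15, with a median log2 gap of −1.55. Over all tested probe sets the shares were 59.9% and 7.28%, and the median gap was −0.11. Both RNase H arrays lay above both controls for 4 of the 20 and below both for 4, where 28% and 30.8% of all tested probe sets did. In the limma comparison of the groups 0 of the 20 passed. With p under 0.05 before adjustment 1 was higher and 0 lower, where 11% of all tested probe sets were higher and 12.7% lower. CTT1, the cytosolic catalase gene, had signals of 527 and 80.9 in the RNase H arrays, against 213 and 282 in the empty vector arrays. HSP12, a membrane-associated stress protein gene, had 8738 and 6088 in the RNase H arrays, against 5662 and 5212 in the empty vector arrays. The 7 trehalose genes, which encode the synthase complex and the trehalases of the other storage sugar, were below array 1 in array 2 for all 7, with a median log2 gap of −1.29, and 0 passed in limma, before adjustment too. TPS1, the trehalose phosphate synthase gene, had 2675 and 1299 in the RNase H arrays, against 2654 and 2984 in the empty vector arrays. The part of these stress genes, and of the actin ratios above, in the glycogen values was not tested.

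The gap was close in size across these lists, but where it lay relative to the controls was not. The 20 stress genes had a median log2 difference from the empty vector mean of 0.93 in array 1 and −0.52 in array 2. The trehalose genes had 0.30 in array 1 and −1.11 in array 2. The glycogen genes had −0.15 in array 1 and −1.83 in array 2, and the 6 precursor genes −0.45 and −1.86. Over all tested probe sets the medians were 0.04 in array 1 and −0.08 in array 2. Stress genes were thus above the empty vector mean in array 1 for 16 of 20 members and below it in array 2 for 15 of 20. The glycogen genes were split 5 to 5 in array 1 and were all below in array 2. Of all 5470 tested probe sets, 2980 were above in array 1 and 3073 below in array 2. These medians describe the lists, and no test was made between them.

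**Figure D5:**
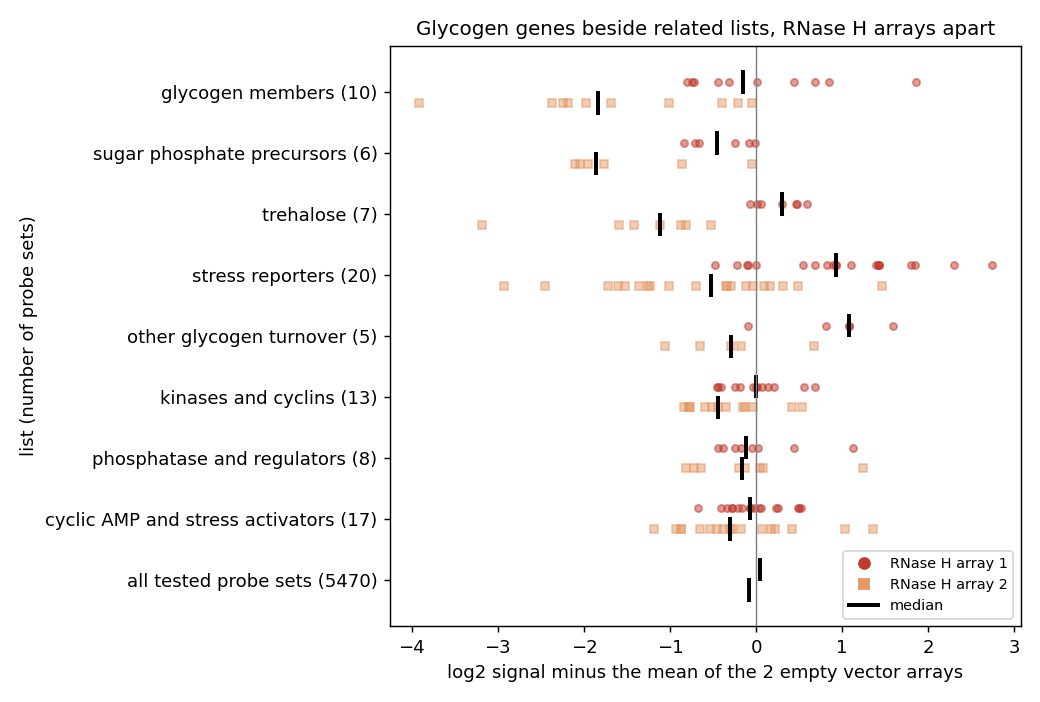
Log2 signal minus the mean of the 2 empty vector arrays (horizontal axis) for the glycogen genes and 7 related lists, with RNase H array 1 above array 2 in each row; points are genes, black ticks are medians, and the last row gives the medians over all 5470 tested probe sets. The median of array 2 lies left of the median of array 1 in every row, by more in the first 5 rows than in the last 4. Some single genes, such as RAS1 and PDE2, lie the other way.

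Among all other tested probe sets, the 6 closest to the median pattern of the glycogen genes over the 4 arrays were NDJ1, GLK1, PNC1, PGM2, XKS1 and YJL163C. Closeness was the Euclidean distance between log2 differences from the empty vector mean, and it ran from 0.10 for NDJ1 to 0.18 for YJL163C. GLK1 and PGM2 are the glucokinase and phosphoglucomutase genes above, and XKS1, the xylulokinase gene, had signals of 442 and 128 in the RNase H arrays against 389 and 537 in the empty vector arrays. PNC1, a nicotinamidase gene, had 2629 and 856 in the RNase H arrays against 2676 and 2971 in the empty vector arrays. The signals of NDJ1, a meiotic telomere gene, were low, 25.8 and 7.45 in the RNase H arrays against 25.3 and 29.2 in the empty vector arrays. With 4 arrays such likeness rests mainly on array 2.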

How the data were processed

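Total RNA (150 ng) of 4 yeast cultures was amplified in vitro for 8 h and hybridised to 1 array each, per the labels' protocols. The authors deposited MAS5 signals, an intensity on a linear scale, made with Affymetrix Expression Console per the submitters' processing notes; the software versions and the scaling target are not given in the sources used here. MAS5 subtracts mismatch signal, so ratios of dim probe sets are noisy. Precision is limited by the number of arrays.

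Probe sets were named through the platform annotation and updated to the R64 gene table by gene identifier. Probe sets with 1 S. cerevisiae gene were tested if their mean log2 signal exceeded the 75th percentile of S. pombe probe sets (a signal of 2.13), which left out 28. Samples were grouped by plasmid from their titles. Differences of log2 signal, RNase H minus empty vector, were fitted in limma (version 3.58.1, under R 4.3.3; moderated variances follow an intensity trend; two-sided, Benjamini-Hochberg over 5470 probe sets, threshold 0.05). For 2 arrays a side the smallest exact permutation p is 0.333, so none is given. The limma fit alone was also run on simulated data, with the same SD per probe set in both groups. The RNase H pair here was spread more widely than the empty vector pair, so that run does not check the test for such spread. The replicates are labelled biological; no shared day or batch is stated, so the equal replicate numbers were not used as pairs.

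The 10 genes and the lists were chosen with earlier results of these data known. Named were the 10 genes, a fixed set of regulators, up to 6 genes per list by smallest p and up to 4 by the gap between the RNase H arrays, and the 6 nearest patterns. Alternatives were other scalings, dim filters and pseudocounts, the variance model, a replicate block, and each array left out. After seeing the data, a crossed block and a mean signal above 100 were added.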

Additional observations from a re-analysis of the deposited data

How the results depend on the processing

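The count of glycogen genes called was 0 under all scalings, filters and pseudocounts tried, without an intensity trend, with robust eBayes, with a replicate block (0 of 10 called, 82 of all probe sets against 81), at an adjusted p under 0.10, and with a mean signal above 100, which kept 8 of the 10. It lay between 0 and 7 when each array was left out in turn. The replicate differences of the 2 groups correlated at −0.30 across probe sets, and with the replicate numbers crossed 5 of the 10 and 937 of all probe sets were called. That crossing was added after the data were seen and takes up spread between the arrays. The labels give no such pairing, so these calls count as no support for a change. The median log2 fold change of the 10 lay between −1.83 and −0.15 when an array was left out, and was −0.64 with a pseudocount of 64. The median of RNase H array 1 against the controls lay between −0.32 and 0.079 when an empty vector array was left out, so its sign was not settled. That of array 2 lay between −1.86 and −1.78 there, and was −1.56 and −1.14 with pseudocounts of 16 and 64, which shrink ratios of dim genes by construction. Over 2-fold apart between the RNase H arrays were 6 genes after quantile scaling (529 of all 5470 probe sets), 6 after loess scaling (525) and 7 after median scaling (581). There were 5 with a pseudocount of 64 (289 of all), against 8 in the signals as deposited (581 of all). Over 1.5-fold apart were 9 of the 10.

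When an array was left out, the log2 fold change lay between −0.053 and 0.44 for GLG1, −2.18 and 0.69 for GLC3, −1.01 and 0.0096 for GDB1, −0.21 and 1.86 for GAC1, and −0.39 and 0.85 for PIG2. The sign turned for these 5 in 1 of the 4 fits each, and in no other setting. Of 168 values of single genes under alternatives, 146 kept direction and side of the threshold, 18 passed where the fit of all arrays did not, and 5 turned sign, 1 of which, GLC3 without RNase H array 2, also passed. Of the 18 that passed, 5 came from the crossed replicate numbers, which the labels do not give. Low signal limits GAC1, which was at log2 0.27 with the pseudocount of 64. Over all probe sets, where the fit of all arrays called 81, the count was 7 without an intensity trend, 365 at an adjusted p under 0.10, and 2788 and 1761 without RNase H arrays 1 and 2.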
